A study of Homo sapiens with 24 samples.

Results

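Differentiation batch 1 of sensory neurons made from H9WAO9, a line of human embryonic stem cells, was compared with differentiation batches 2 to 6 of the same protocol. The libraries were chosen by their batch label, which assigned 4 of the 24 libraries to batch 1 and 20 to the other 5 batches. Each batch gave 1 library of each of 4 treatments, namely vehicle, TGF-β at 2 ng/ml, IL-4 at 10 ng/ml together with IL-13 at 3 ng/ml, and IL-6, for which the labels give no dose, each over 5 days. All libraries are bulk RNA of whole cultures, taken after a vagal neural crest stage and later maturation as sensory neurons. Neurons and other cells were therefore measured together. Batch 1 is absent from the libraries that the paper plots. The comparison answers which genes and cell type markers set this differentiation apart, and whether it responded to the treatments like the others. It has 1 batch on one side, so the batch is the unit and most of what follows is a description.

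Peripheral sensory neurons arise from the neural crest under transcription factors such as ISL1, POU4F1 and DRGX, and afterwards express neurofilaments, the proteins of synaptic vesicles, voltage-gated channels and neuropeptides. Cells with motile cilia, such as those of the ependyma, carry an axoneme of dynein arms, radial spokes and associated proteins, which FOXJ1 and the RFX factors switch on. The choroid plexus, a ciliated epithelium, secretes cerebrospinal fluid and is known for transthyretin (TTR), the carrier of thyroid hormone and retinol.

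Total counts were between 33342682 and 39817784 per library (median 35775126), and those of batch 1 lay between 35006082 and 38990070. On the first principal component, which held 27.1% of the variance, the batch 1 libraries lay between -109 and -94, whereas the others spread from -53.8 to 92.4. Among the 4 batch 1 libraries the median pairwise correlation was 0.9823. Their mean correlation with another batch was lowest for batch 3 (0.9513) and highest for batch 6 (0.9706), which was also the nearest batch on the first component. The vehicle library labelled batch 2 stood apart from its own batch, with a mean correlation of 0.9639 there and 0.9808 with batch 4. Without it, 1951 genes lay outside the range of the other libraries in the sense defined next, against 1946 with it. The responses to treatment described below, where it is the base of each batch 2 ratio, were not refitted without this library alone. Transcripts of the mitochondrial genome took a larger share in batch 1, at 49200 to 63700 reads scaled to library size (CPM, normalised by TMM) against 29900 to 47100, and the part of this in the results below was not tested.

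**Figure D1:**
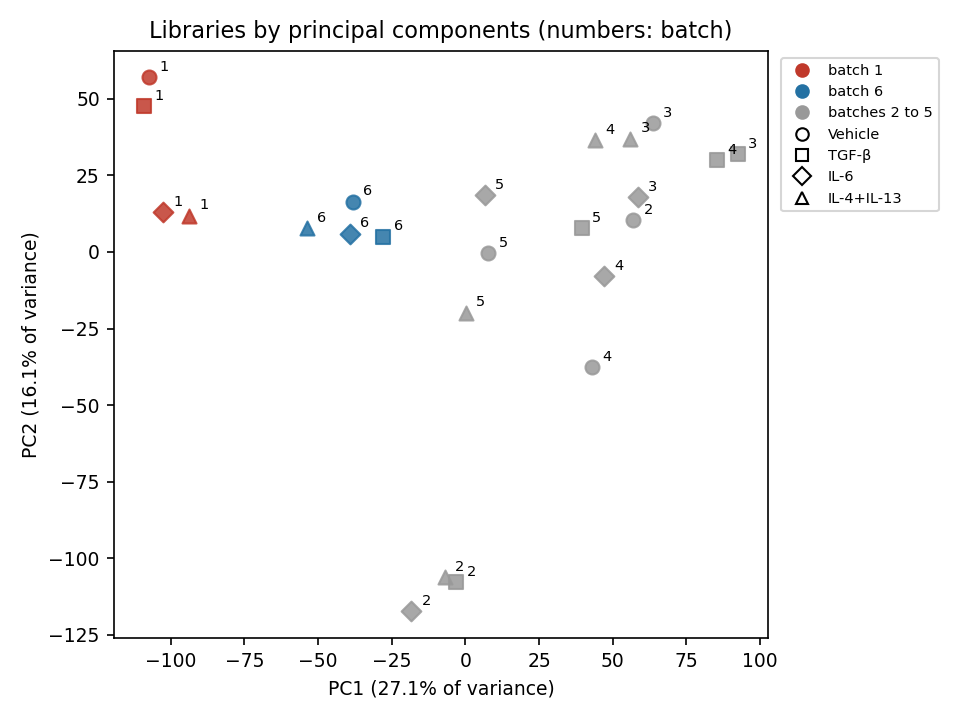
Each point is a library, placed by its first and second principal component of log2 CPM and labelled with its batch number, with colour for the batch and shape for the treatment. The 4 batch 1 libraries lie at the left, between -109 and -94 on PC1, and the 4 libraries of batch 6 are the next along that axis.

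No gene passed the test between batches. With the counts of each batch summed, edgeR's quasi-likelihood test called 0 of 29377 genes (0%), where a call needed a log2 fold change beyond 1 as well as an adjusted p below 0.05, and the smallest adjusted p was 0.0536. At an unadjusted p under 0.05 there were 6860 genes (23.4%), 3300 higher and 3560 lower in batch 1. DESeq2 called 2754 genes on the same sums, and limma voom called 2487 with batch as a random block. Without batch 6, edgeR called 1495, of which 919 were higher in batch 1. Therefore no gene is said below to have risen or fallen between batches, and genes are described by overlap. A gene lay outside the range when all 4 batch 1 libraries were above, or all 4 below, each of the 20 others in CPM and the log2 fold change was beyond 1. This held for 948 genes above the range (3.23% of those tested) and 998 below (3.4%). With total counts as the only scaling the split was 681 above and 1206 below. Over all genes the median log2 fold change of batch 1 was -0.09. Every list count below reads against these shares, and edgeR called no member of any list.

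Nearly all general markers of neurons were lower in batch 1. Of 18 pan-neuronal genes, 17 lay below the range and 0 above, with a median log2 fold change of -1.69. The exception was UCHL1, a neuronal ubiquitin hydrolase, with a log2 fold change of -0.59 and levels that overlapped. Summed over the list, the level was 3250 CPM under vehicle, 3000 under TGF-β, 4300 under IL-6 and 5230 under IL-4+IL-13 in batch 1, and between 6610 and 18500 (median 10700) in the others. DESeq2 and voom each called 17 of the 18 as lower. In bulk RNA, fewer neurons and less neuronal RNA per cell cannot be told apart. The count stayed between 16 and 17 without any 1 of batches 2 to 6.

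NEFL, the light neurofilament chain of axons (chromosome 8 of GRCh38.p14, 24950955 to 24956612), had 262, 205, 280 and 356 CPM in the vehicle, TGF-β, IL-6 and IL-4+IL-13 libraries of batch 1. In the other batches it ranged from 661 through a median of 1450 to 3930 CPM. The lowest of the 20 was in batch 6, and no library of batch 1 reached it. Its log2 fold change was -2.79 (standard error 0.91, edgeR adjusted p = 0.145). STMN2, a growth-associated tubulin-binding protein, stood at 348, 310, 551 and 729 CPM against 1010 to 2260 (median 1540). The gap was narrower under IL-6 and IL-4+IL-13 than under vehicle. That gave a log2 fold change of -1.67 (standard error 0.34, edgeR adjusted p = 0.082). NEFM, RBFOX3 and SNAP25, which encode a second neurofilament chain, a nuclear splicing factor of mature neurons and a membrane fusion protein, followed with log2 fold changes of -2.27, -2.38 and -1.94.

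Of 20 markers of the peripheral sensory lineage, 6 lay below the range and 0 above, with a median log2 fold change of -1.3. Those below were the transcription factors DRGX, ISL1 and POU4F1, the receptor RET, the transporter SLC17A6 and the channel SCN9A. Summed over the list, the levels overlapped. Batch 1 had 698, 624, 899 and 1000 CPM under vehicle, TGF-β, IL-6 and IL-4+IL-13, against 794 to 2340 (median 1700) in the others. Batch 6 alone had 794 to 1016 CPM. DRGX, a homeobox factor of nociceptors (chromosome 10, 49364066 to 49396089), had 2.03, 1.44, 1.7 and 1.95 CPM in batch 1, in the same order of treatments, against 7.06 to 68.4 (median 26.1). The 4 batch 1 libraries were close to each other and all were below the lowest of the 20. DRGX had the lowest log2 fold change of the genes named by rule outside the range, at -4.11 (standard error 1.08, edgeR adjusted p = 0.11).

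ISL1, a LIM homeobox factor of sensory and motor neurons (chromosome 5, 51383448 to 51394730), had 6.38, 6.66, 5.48 and 4.98 CPM against 17.3 to 133 (median 53.2). POU4F1, which encodes the sensory factor BRN3A (chromosome 13, 78598362 to 78603552, overlapping the antisense gene OBI1-AS1), had 2.91, 1.77, 3.58 and 3.47 CPM against 7.41 to 55.8 (median 34.4). Neither overlapped the other batches. The log2 fold changes were -3.4 (standard error 0.95) for ISL1 and -3.37 (standard error 0.94) for POU4F1, both with an edgeR adjusted p of 0.118. Outside this list, ISL2, the paralog of ISL1, and MAFA, a basic leucine zipper factor, were also below the range at -3.67 and -3.46. RET, the receptor of the GDNF family, lay below it at -2.9, and SLC17A6, the vesicular glutamate transporter, at -1.49.

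Sensory genes were not uniformly lower. TRPV1, the capsaicin receptor, had 11.1, 10.6, 8.3 and 10 CPM in batch 1 against 8.77 to 15 (median 11.4), and its log2 fold change was -0.16 (standard error 0.19). The IL-6 library was just under the lowest of the others, and the remaining libraries were inside their range. NTRK2, the receptor of BDNF, had a log2 fold change of 0.01, with 243 to 368 CPM in batch 1 and 224 to 449 in the others. PIEZO2, a mechanosensitive channel, overlapped as well, with a log2 fold change of -0.83. SCN10A had 0 counts in each batch 1 library, which allows up to 3 counts per library by counting error alone, and at most 0.756 CPM elsewhere, so no fold is given.

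**Figure D2:**
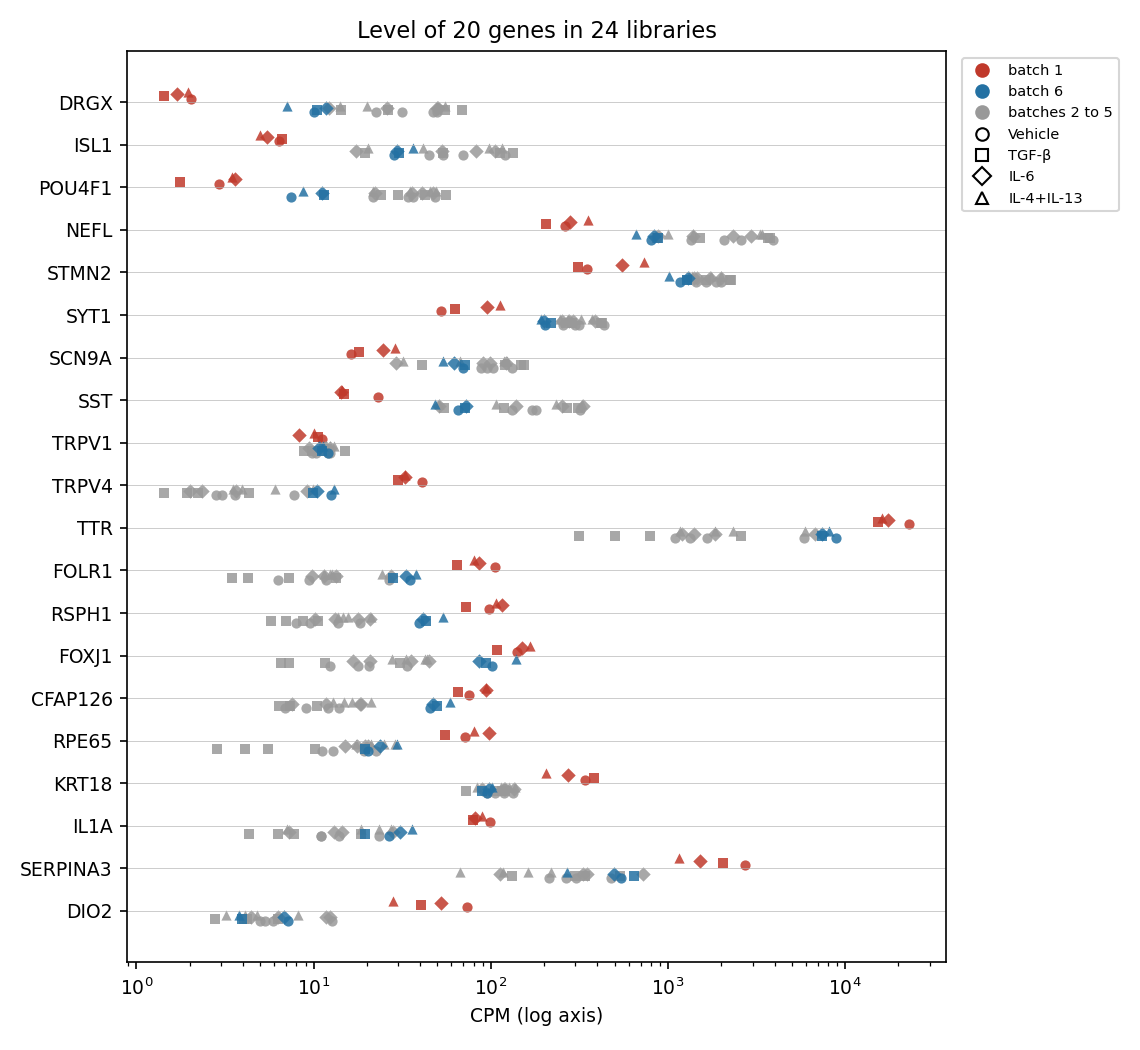
Each row is a gene and each point a library, with the level in CPM on a log axis. Batch 1 is drawn in red above the line and the others below it, with batch 6 in blue. Red points lie to the left of all others for DRGX, ISL1, POU4F1, NEFL, STMN2, SYT1, SCN9A and SST, overlap them for TRPV1, and lie to the right from TRPV4 down except for FOXJ1, where they overlap.

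The ion channels and the release machinery of neurons were lower together. Below the range were 7 of 14 voltage-gated sodium channel genes, 8 of 18 potassium and 10 of 16 calcium channel genes, with 0 above in each list and median log2 fold changes of -1.56, -1.28 and -1.4. SCN9A, which encodes the pain channel NAV1.7 (chromosome 2, 166195185 to 166375987, overlapping the antisense gene SCN1A-AS1), had 16.3, 18.1, 24.5 and 28.8 CPM against 29.2 to 153 (median 92.7). The IL-4+IL-13 library of batch 1 was just under the lowest other library, which was the IL-6 library of batch 2. Its log2 fold change was -2.01 (standard error 0.55, edgeR adjusted p = 0.115). CACNA1B, the N-type calcium channel of nerve endings, had 19 to 29.9 CPM against 50.6 to 128, a log2 fold change of -1.82.

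Of 24 synaptic vesicle genes, 15 lay below the range and 0 above, with a median log2 fold change of -1.57 and none higher in batch 1 by log2 fold change. SYT1, the calcium sensor of vesicle fusion, had 52.4, 62.4, 95.3 and 113 CPM against 192 to 433 (median 283), a log2 fold change of -1.83 (standard error 0.39, edgeR adjusted p = 0.0857). UNC13A, which primes vesicles, had a log2 fold change of -2.02. Among 17 neuropeptide genes, 5 were below the range. SST, somatostatin (chromosome 3, 187668912 to 187670394), had 23, 14.9, 14.2 and 14.4 CPM against 48.6 to 332 (median 135), a log2 fold change of -3.28 (standard error 1.04). The opioid precursors PDYN and PENK and the granule protein CHGB lay below the range at -2.92, -2.68 and -1.91.

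Markers of autonomic neurons and of glia, other derivatives of the neural crest, were lower in sum, although few lay outside the range one by one. Melanocyte genes, of a further derivative, were not lower in sum, at 212 to 361 CPM in batch 1 against 98.9 to 777 (median 184). Their median log2 fold change was -0.46, and 0 of 10 lay outside the range, or 2 above it without batch 6. The 16 autonomic neuron genes summed to 136 to 165 CPM in batch 1 against 213 to 509 (median 309), with a median log2 fold change of -1.26. Below the range were 3 of them, namely DBH and TH, enzymes of noradrenaline synthesis, and CHRNA3, a ganglionic acetylcholine receptor subunit. The 16 genes of Schwann cells and satellite glia summed to 451 to 467 CPM against 522 to 1270 (median 882), with a median log2 fold change of -0.99. Of these 6 were higher in batch 1 by log2 fold change and 10 lower. The 1 below the range was the adhesion molecule L1CAM, which neurons also express. Without batch 6, 1 lay above the range and 2 below. SOX10, the defining factor of that lineage, was near the detection limit in both, at 0.235 to 0.48 CPM in batch 1 and 0.0769 to 0.671 in the others. Neural crest progenitor genes did not separate as a list, with 923 to 997 CPM in sum against 558 to 1300 and a median log2 fold change of -0.16. Of its 15 genes 7 were higher in batch 1 by log2 fold change, 1 lay above the range (MSX1, described with the BMP signals) and 1 below. The latter, TFAP2B (chromosome 6, 50818355 to 50847619), a factor of early crest cells, had 2.91, 2.32, 6.21 and 9.88 CPM against 16.2 to 39 (median 27.3). Its log2 fold change of -2.34 had a standard error of 0.28 (edgeR adjusted p = 0.0745).

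Many genes of motile cilia and of the choroid plexus were higher in batch 1, though only some of them cleared the range of the other libraries. All 12 genes of a list of ciliated ependyma and choroid plexus had a log2 fold change above 1, with a median of 1.81, and 6 lay outside the range. Their summed level was 1860, 1590, 1850 and 1890 CPM in batch 1 and between 278 and 1220 (median 460) in the others. The highest of the others was in batch 6. Without batch 6, 12 of the 12 lay above the range. A wider list of 104 genes of motile cilium families, taken by name after values had been seen, had 49 above the range and 0 below, with a median log2 fold change of 1.52, and 91 of the 104 had a positive one. That count was 75 without batch 6 and 29 when libraries were scaled by total count only. Voom with batch as a random block called 71 of the 104 as higher, and DESeq2 called 21.

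RSPH1, a protein of the radial spoke head (chromosome 21, 42472486 to 42496224), had 97.1, 72.7, 116 and 107 CPM in batch 1 against 5.72 to 53.9 (median 14.2). The log2 fold change was 2.38 (standard error 0.69, edgeR adjusted p = 0.123). CFAP126, a cilia and flagella associated protein (chromosome 1, 161364733 to 161367876), had 75.2, 65.2, 94.4 and 93.4 CPM against 6.35 to 58.8 (median 13.4), a log2 fold change of 2.08. Both had their highest other value in the IL-4+IL-13 library of batch 6, below every batch 1 library. FOXJ1, the master regulator of motile cilia, did overlap, with 141, 108, 150 and 167 CPM against 6.56 to 138 (median 32) and a log2 fold change of 1.81 (with a standard error 0.85, edgeR adjusted p = 0.255). The dynein intermediate chains DNAI1 and DNAI2, and CFAP97D2 and CFAP73, which are named for their place in this family, lay above the range at 2.09, 2.56, 3.18 and 2.93.

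The promoters of several of these genes are shown because they share a motif that was searched for. RFX factors bind the X-box, and its half-site was searched as GTTGCC on both strands, thus also as GGCAAC, in the 250 bases upstream of the start of each gene in RefSeq's promoters for GRCh38.p14. Of 14184 promoters of genes tested, 10.6% held it, against 42.9% of the 84 promoters found for the motile cilium families. Within these families the share was 45.9% for 37 members above the range and 40.4% for the 47 others. Among all genes above the range 13.6% held it, and 7.99% of those below. A match is a description and not a binding site. The windows below are written 5′ to 3′ on the strand of the gene, with the half-site in capitals, and CFAP45 and CFAP100, 2 further cilia and flagella associated proteins, and RSPH4A, a second radial spoke head protein, are added.
DNAI2, chr17:74274017-74274102, plus strand: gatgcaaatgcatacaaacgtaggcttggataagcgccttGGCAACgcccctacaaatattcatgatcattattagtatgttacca
DNAI1, chr9:34458555-34458616, plus strand: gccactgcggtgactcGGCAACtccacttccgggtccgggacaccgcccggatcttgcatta
CFAP126, chr1:161367877-161367942, minus strand: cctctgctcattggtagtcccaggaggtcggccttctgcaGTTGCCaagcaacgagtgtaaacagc
CFAP45, chr1:159900166-159900224, minus strand: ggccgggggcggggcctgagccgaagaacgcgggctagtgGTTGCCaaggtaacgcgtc
CFAP100, chr3:126394847-126394908, plus strand: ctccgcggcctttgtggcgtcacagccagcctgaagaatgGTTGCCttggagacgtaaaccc
RSPH4A, chr6:116616389-116616474, plus strand: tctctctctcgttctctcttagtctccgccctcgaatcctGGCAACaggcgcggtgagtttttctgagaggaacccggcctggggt

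Transport and secretion genes of the choroid plexus were higher with the cilia genes. Of 16 genes of a second list, also added after values had been seen, 9 lay above the range and 0 below, with a median log2 fold change of 1.66. TTR (chromosome 18, 31591877 to 31598821) had 22900, 15400, 17400 and 16100 CPM in batch 1 against 316 to 8840 (median 1840). It alone took 1.44% to 2.13% of the counts of a batch 1 library, and 0.0307% to 0.923% elsewhere. The log2 fold change of TTR was 2.41 (standard error 0.97, edgeR adjusted p = 0.201), and its highest other level was the vehicle library of batch 6. FOLR1, the folate receptor of this epithelium (chromosome 11, 72189709 to 72196323, overlapping FOLR1-AS1), had 106, 64.5, 85.3 and 80.8 CPM against 3.47 to 37.9 (median 12.5), a log2 fold change of 2.33 (standard error 0.67).

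HTR2C, a serotonin receptor abundant in the choroid plexus, SLC13A4, a sulfate transporter, and CLIC6, a chloride channel protein, lay above the range at 2.04, 2.4 and 1.73. TRPV4, an osmosensitive channel (chromosome 12, 109783087 to 109833398), had 41, 29.8, 32.7 and 33 CPM against 1.44 to 13 (median 3.79). This was a log2 fold change of 2.61 (standard error 0.71), which placed it opposite to most of the neuronal channels. KCNJ13, a potassium channel of the same epithelium, did not separate, with 33.6 to 52.1 CPM in batch 1 and up to 50.5 in batch 6. The water channel AQP1 lay at -1, with 23.9 to 40.6 CPM against 17.9 to 153. In a list of 13 genes of the retinal pigment epithelium, which also expresses TTR, 2 lay above the range, RPE65 and OTX2, and the median log2 fold change was 0.05. The count was 4 without batch 6 and 1 without batch 2 or batch 5. RPE65, its retinoid isomerase (chromosome 1, 68428822 to 68449954), had 71.2, 55.2, 97.5 and 80.8 CPM against 2.84 to 29.4 (median 19.4), and a log2 fold change of 2.17 (standard error 0.25, edgeR adjusted p = 0.0745). The list's other defining genes RLBP1 and LRAT had at most 1.2 CPM in batch 1. By log2 fold change 8 of the 13 genes were higher in batch 1 and 5 lower. Their summed level was 959 to 1230 CPM in batch 1 against 254 to 1590 (median 461).

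TTR is also a liver gene, and OTX2 a gene of the forebrain. Of 11 endoderm and liver genes, 2 lay above the range, TTR and AFP, the fetal serum protein, which had 0.495 to 1.02 CPM against 0 to 0.339. Albumin (ALB) had at most 0.397 CPM in batch 1, and FOXA2, a defining factor of endoderm, had 0 counts in all 4 libraries. OTX2, which also patterns the choroid plexus (chromosome 14, 56799905 to 56810479), had 241, 232, 207 and 228 CPM against 63.9 to 197 (median 109). Of 11 genes of central nervous system progenitors it was the 1 above the range, and 0 lay below. None of the 11 lay above it without batch 2, where 1 lay below, without batch 5, or with total count or upper quartile scaling. PAX6, another of them, had 51.6 to 81.1 CPM against 41.1 to 207.

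**Figure D3:**
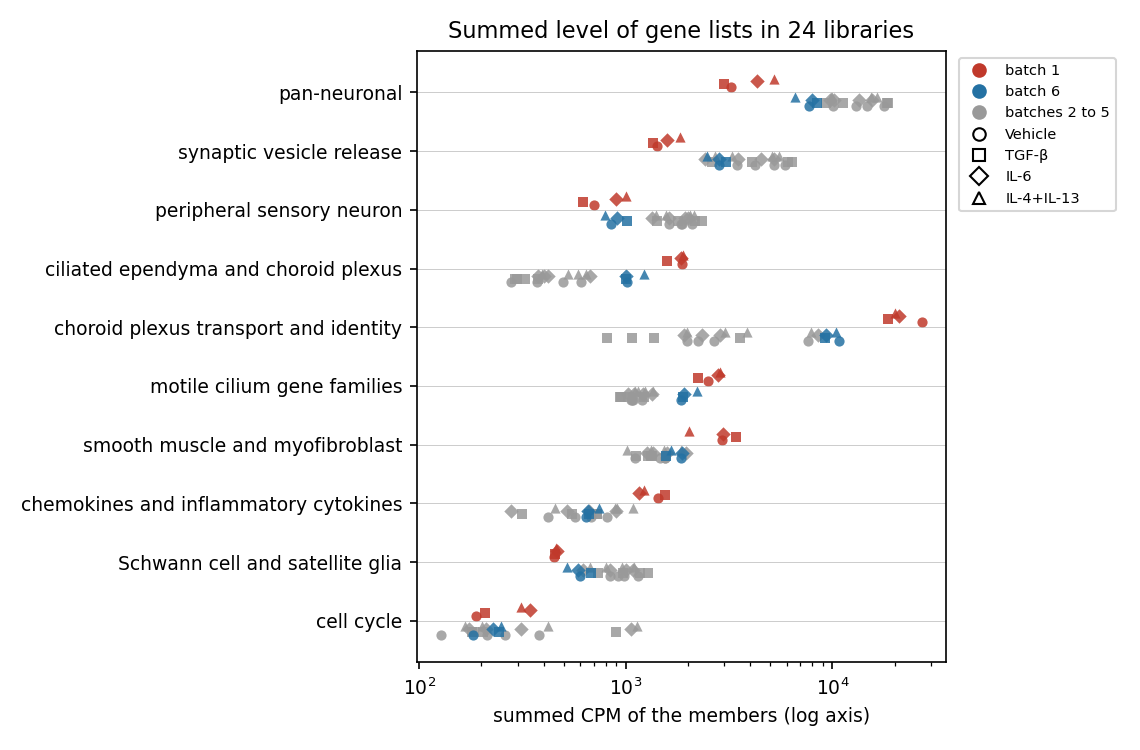
Each row is a gene list and each point a library, with the CPM of the members summed on a log axis, batch 1 in red above the line and batch 6 in blue. The lowest batch 1 sum for the ependyma and choroid plexus list, 1590 CPM, is above the highest of the others, 1220 CPM, and the highest batch 1 sum for the pan-neuronal list, 5230 CPM, is below the lowest, 6610 CPM.

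Batch 6 supplied the nearest library most often for genes above the range, and shared that place with batch 2 for genes below it. Of the 948 genes above the range, the library closest to batch 1 belonged to batch 6 for 480 genes (50.6%) and to batch 5 for 292 (30.8%). Of the 998 genes below the range, it belonged to batch 6 for 421 (42.2%) and to batch 2 for another 421. Batch 3 supplied the closest library in only 32 and 27 cases. The root mean square of the log2 differences from batch 1 was 0.715 for batch 6, 0.821 for batch 5 and 0.944 to 1.03 for batches 2, 3 and 4.

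Most inflammatory genes were higher in batch 1, and a minority cleared the range. Of 21 chemokine and inflammatory cytokine genes, 7 lay above it and 0 below, with a median log2 fold change of 1.37 and 19 positive values. The summed level was 1160 to 1540 CPM in batch 1 and 278 to 1090 in the others. IL1A, an alarmin cytokine (chromosome 2, 112773925 to 112784493), had 99.4, 79.1, 81.6 and 89.5 CPM against 4.31 to 36.1 (median 16.5). The log2 fold change was 2.35 (standard error 0.56, edgeR adjusted p = 0.0976), and the 4 values varied little with treatment. The neutrophil chemokines CXCL1 and CXCL2 and the monocyte chemokine CCL2 lay above the range at 1.37, 2.15 and 1.43. CXCL8, in contrast, overlapped, with 8.6 to 24.1 CPM against 3.52 to 98.7.

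SERPINA3, an acute phase protease inhibitor on the list of IL-6 response genes (chromosome 14, 94612391 to 94624053), had 2710, 2040, 1510 and 1150 CPM against 67.3 to 726 (median 301). The highest of its batch 1 levels was under vehicle, not under IL-6, and its log2 fold change was 2.5 (standard error 0.53, edgeR adjusted p = 0.0857). IL13RA2, a decoy receptor of IL-13 on the X chromosome (115003982 to 115017616), had 257, 198, 228 and 380 CPM against 13.2 to 116 (median 46.9). It was above the range already under vehicle, at a log2 fold change of 2.42 (standard error 0.32). No member of 21 interferon-stimulated and MHC class I genes lay outside the range, although their summed level was 698 to 841 CPM against 447 to 656.

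Epithelial keratins, contractile genes and some matrix genes were also higher in batch 1. KRT18, a keratin of simple epithelia (chromosome 12, 52948855 to 52952906, overlapping its partner KRT8 in the annotation), had 340, 384, 274 and 204 CPM against 72.8 to 137 (median 110). Its log2 fold change was 1.48 (standard error 0.19, edgeR adjusted p = 0.0745), and that of KRT8 was 1.39. These were the 2 of 13 epithelial genes above the range, and the count was 4 without batch 5 and 4 without batch 6. EPCAM, an adhesion molecule of epithelia, overlapped the other batches, with 16.8 to 21.3 CPM against 17.8 to 45.6 and a log2 fold change of -0.71. CDH1 (E-cadherin) overlapped them as well, with 2.08 to 12 CPM against 0.377 to 10.4.

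In the smooth muscle and myofibroblast list, 2 of 12 genes lay above the range, the myosin light chain MYL9 at 1.29 and LMOD1 at 1.11, with a list median of 0.91. The count was 4 without batch 6 and 1 with total count scaling. ACTA2, the marker actin of myofibroblasts, had 357, 470, 365 and 212 CPM against 83 to 269, so that its IL-4+IL-13 library fell inside the range. FBLN1, a glycoprotein of elastic and basement membrane matrix (chromosome 22, 45502883 to 45601135), had 1720, 1470, 1140 and 1070 CPM against 197 to 821 (median 341), a log2 fold change of 1.8 (standard error 0.46). The basement membrane collagens COL4A5 and COL4A6 lay above the range at 1.22 and 1.39. Of 16 fibroblast genes 1 lay above and 2 below. This became 1 above and 5 below without batch 6, and 0 above and 2 below without batch 2 or with total count scaling. DCN (decorin) was below the range at -2.66 and PDGFRB, a growth factor receptor, above it at 1.06.

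Secreted signals of development were mixed. Of 27 BMP and TGF-β family genes, 5 lay above the range and 1 below. TGFB3, a TGF-β ligand, BAMBI, a decoy receptor, and GDF5, a BMP ligand, were above it at 1.54, 1.47 and 1.64. Of 25 WNT genes, 5 lay above and 2 below, with the antagonist SFRP1 at 1.82 and its relative SFRP2 at -1.76. MSX1, a target of BMP signals in crest and roof plate, had 242, 202, 207 and 243 CPM against 18.5 to 112, a log2 fold change of 1.75. No HOX gene of paralog groups 1 to 5, and none of groups 6 to 13, lay outside the range. The posterior groups were near the detection limit, with a summed level of 0.395 to 0.645 CPM in batch 1. Their median log2 fold change was -3.36 as fitted, and -0.74 with the 4 genes without a count in batch 1 set to 3 counts per batch, or left out where this gave no deficit. None of 24 cell cycle genes lay outside the range, with 189 to 345 CPM in sum against 128 to 1130.

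**Figure D4:**
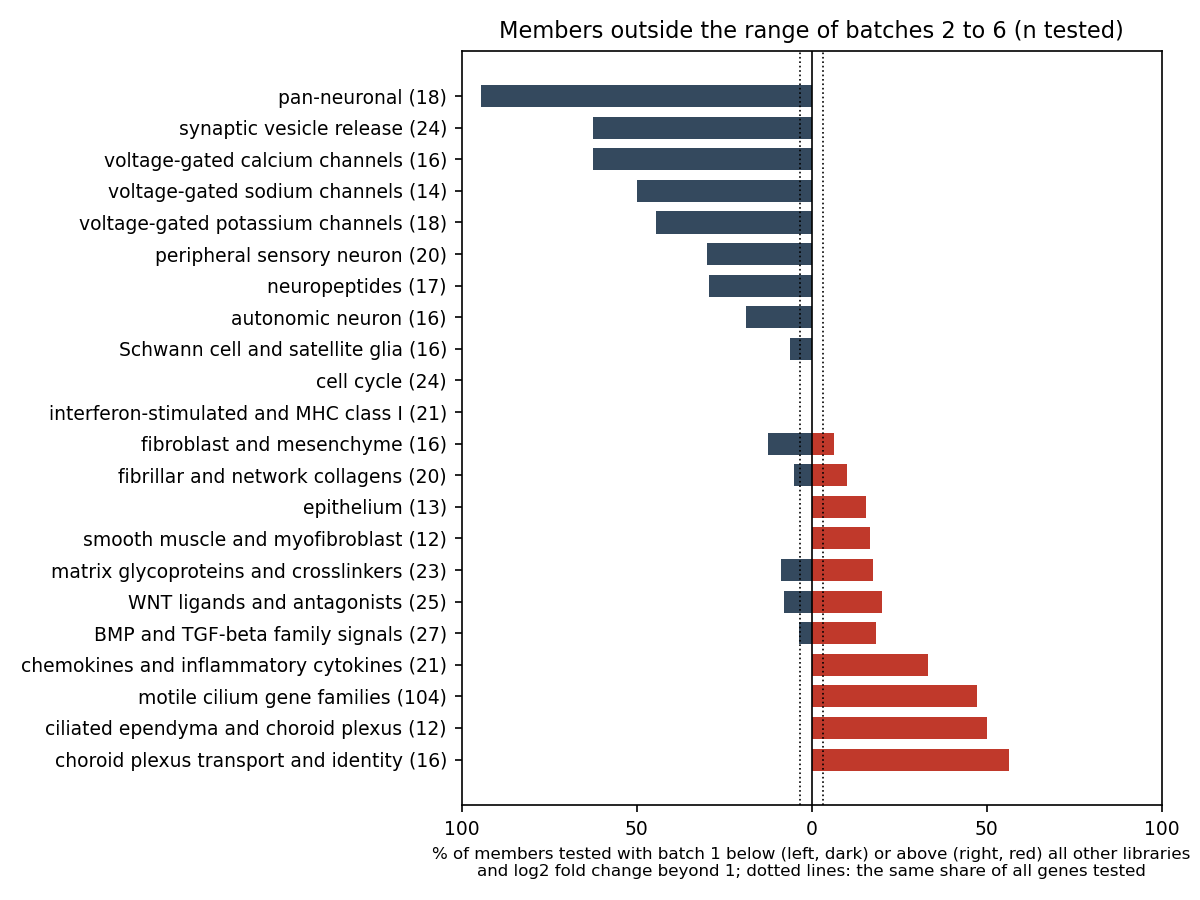
Bars give the percentage of the members tested of each list that lay below (left) or above (right) all other libraries with a log2 fold change beyond 1, and dotted lines mark these shares over all genes, 3.4% and 3.23%. Neuronal lists extend to the left, with 17 of 18 pan-neuronal genes, and choroid plexus, cilium and inflammatory lists to the right.

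By the naming rule, the genes furthest above the range included several of other kinds. DIO2, the deiodinase that activates thyroid hormone (chromosome 14, 80197526 to 80231057, overlapping DIO2-AS1), had 73.6, 40.3, 52.1 and 28.1 CPM against 2.79 to 12.7 (median 5.16). Its highest other level was in batch 5 and its log2 fold change was 3 (standard error 0.3, edgeR adjusted p = 0.0745). TRPC6, a cation channel, and SLC1A7, a glutamate transporter, had the largest log2 fold changes after the rule's limit on mean counts, 3.27 and 3.32, at 5.07 to 9.5 and 5.71 to 20.2 CPM. Furthest below after DRGX were FRMD7, a protein of neurite outgrowth, at -3.86 and VIT, a matrix protein, at -3.73. VIT had 0 to 0.352 CPM in batch 1 against 0.528 to 6.69.

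The response to the treatments was then compared, as the log2 ratio of each treated library to the vehicle library of its batch. All 3 responses of a batch share that library, and in batch 1 each rests on a pair of libraries that are assumed to vary like those of the other batches. For IL-4+IL-13, edgeR's interaction test called 188 of 29377 genes (0.64%) with a higher log2 ratio in batch 1 than in batches 2 to 6, and 15 (0.0511%) with a lower one. The total of 203 was 476 without batch 2, 84 without batch 3, 109 without batch 5 and 96 without batch 6. For IL-6 it called 23 higher (0.0783%) and 5 lower (0.017%), and this total of 28 was 78 without batch 2, 13 without batch 3 and 15 without batch 5. For TGF-β it called 4 higher (0.0136%) and 7 lower (0.0238%). Of the 188 genes, 183 had a lower level in batch 1 than in the other batches and 82 lay below the range, whereas 0 lay above it. Over all genes tested, 3.4% lay below the range and 3.23% above. The batch 1 level includes the vehicle library that is the base of the ratio. A low vehicle value lowers the level and raises the ratio, so these counts are partly coupled.

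The genes with a higher ratio to IL-4+IL-13 in batch 1 included many of neurons. In the pan-neuronal list 6 of 18 were called, namely STMN2, ELAVL2, ELAVL4, SYT1, DCX and INA, all higher. ELAVL4, a neuronal RNA-binding protein, had 24.3 CPM under vehicle and 70.7 under IL-4+IL-13 in batch 1, and 100 to 133 under vehicle and 93 to 135 under treatment elsewhere. Its log2 ratio was 1.54 in batch 1 and between -0.364 and 0.431 in the others, a difference of 1.64 (standard error 0.23, edgeR adjusted p = 0.00216). DCX, a microtubule protein of young neurons, had a log2 ratio of 1.17 against -0.239 to 0.0339 (difference 1.29, edgeR adjusted p = 0.0026). In both, the treated library of batch 1 came nearer to the other batches without reaching them. SCN1A and SCN3A among sodium channels, KCND2 among potassium channels, CACNA2D1 and CACNG2 among calcium channels and TFAP2B were called as well, with differences of 1.87, 1.34, 1.59, 1.06, 1.42 and 2.09.

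For IL-6, the genes named by rule included NEGR1, ROBO2 and P2RX3. NEGR1, a neuronal growth regulator (chromosome 1, 71395943 to 72282539), had 10.2 CPM under vehicle, 10.5 under TGF-β, 28.7 under IL-6 and 38.1 under IL-4+IL-13 in batch 1. Its difference was 1.59 for IL-6 (standard error 0.23, edgeR adjusted p = 0.00965) and 2.17 for IL-4+IL-13 (edgeR adjusted p = 0.000348). ROBO2, a receptor of SLIT guidance cues (chromosome 3, 75906675 to 77649964), had 14.4, 15.2, 39.2 and 49.6 CPM in the same order, with differences of 1.73 and 2.18 (edgeR adjusted p = 0.00717 and 0.000398). P2RX3, the ATP-gated channel of sensory endings (chromosome 11, 57335950 to 57372396), had 17.1, 17.6, 49.4 and 51 CPM, with differences of 1.42 and 1.56 (edgeR adjusted p = 0.0266 and 0.00427). In each of these the vehicle and TGF-β libraries of batch 1 were low and nearly equal, and the IL-6 and IL-4+IL-13 libraries were higher. Of the genes called higher for IL-4+IL-13, 22 were also called higher for IL-6, and these comparisons share the vehicle libraries.

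The lower calls for IL-4+IL-13 included PLIN2, a coat protein of lipid droplets (chromosome 9, 19108388 to 19127492), which had 194 CPM under vehicle and 72.7 under treatment in batch 1 and stayed within 30.6 to 56.8 and 30.8 to 48.9 CPM elsewhere. The difference in log2 ratio was -1.45 (standard error 0.23, edgeR adjusted p = 0.00553). HMOX1, the heme oxygenase of oxidative stress, had a log2 ratio of -0.943 in batch 1 against 0.183 to 0.805 (difference -1.38, edgeR adjusted p = 0.0386). SPOCD1, NKAIN4 and SLC6A11 had differences of -1.82, -1.65 and -1.56. Of the 16 differences named by rule over the 3 treatments, 13 lost the call without 1 of batches 2 to 6. VWC2L (difference 3.29), PLIN2 and, for IL-6, ROBO2 did not.

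No member of the list of IL-4 and IL-13 response genes had a called difference, and their responses in batch 1 were mixed. ALOX15, a lipoxygenase induced by these cytokines, had 0.113 CPM under vehicle and 414 under IL-4+IL-13 in batch 1, and 126 to 436 under treatment elsewhere (interaction 1.4, standard error 1.46, edgeR adjusted p = 0.875). CISH, a feedback inhibitor of STAT5, reached 32.6 CPM against 11.3 to 31.9. CCL26, an eosinophil chemokine, reached 5.81 CPM in batch 1, below the 7.76 to 56.4 of the others, with a difference of -3.01 (standard error 1.63, edgeR adjusted p = 0.617). IL13RA2, already high under vehicle, had a log2 ratio of 0.567 in batch 1, below the 1.1 to 1.96 of the others (difference -0.88, edgeR adjusted p = 0.568). VCAM1, an adhesion molecule for leukocytes, went from 3.22 to 3.88 CPM in batch 1, a log2 ratio of 0.268 against 0.592 to 2.97 (difference -1.93, edgeR adjusted p = 0.436). Thus ALOX15 and CISH were inside the range of the other batches in log2 ratio, as were the members MME, CD44, POSTN and SOCS1. FGL2 was just above it, at 2.59 against at most 2.53, and CCL26, IL13RA2 and VCAM1 were below it. The median log2 ratio of the list was 2.25 in batch 1, inside the 1.16 to 2.92 of the other batches. SOCS3, a target of IL-6 signals, had 126 CPM under vehicle and 120 under IL-6 in batch 1 (difference -0.18, edgeR adjusted p = 1). Its log2 ratio to IL-6 was -0.0674 there and -0.154 to 0.444 in the others. Over the list of IL-6 response genes the median log2 ratio to IL-6 was -0.107 in batch 1 and -0.613 to 0.18 in the others.

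**Figure D5:**
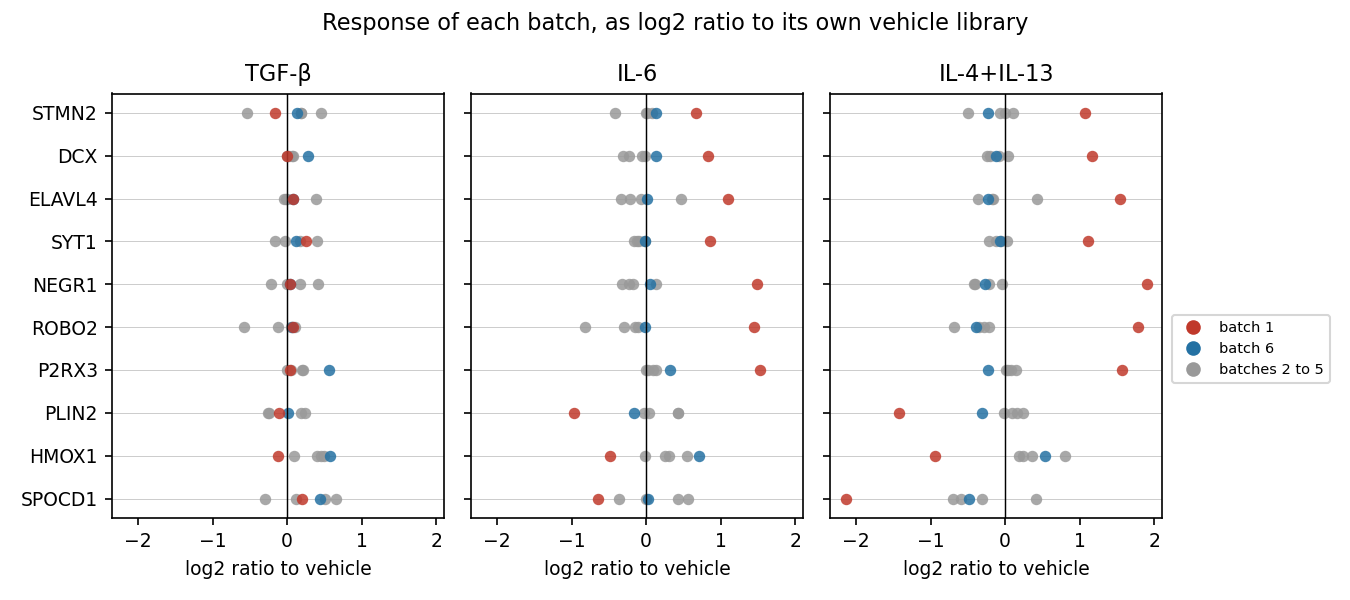
Points give the log2 ratio of the treated library to the vehicle library of the same batch for 10 genes, 1 panel per treatment, with batch 1 in red and batch 6 in blue. For IL-4+IL-13, the red points of the 7 neuronal genes from STMN2 to P2RX3 lie to the right of all other batches and those of PLIN2, HMOX1 and SPOCD1 to the left, whereas for TGF-β the red points lie among or near the others.

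No TGF-β difference met the naming rule, and the genes with several entries in the table were looked at after their values had been seen. UBE2QL1 has 2 entries, which counted 1164 and 2 reads in the vehicle library of batch 1, whereas its TGF-β library had 444 and 432. The near-zero entry was called higher in all 3 responses. ZNF436 had 414 and 428 reads under vehicle and 0 and 824 under TGF-β in batch 1, and each entry had at least 547 in every other batch. For STING1 the entries counted 419 and 3 under vehicle and 162 and 150 under TGF-β. The reads were thus divided differently between entries of 1 symbol from library to library, and from vehicle to TGF-β the sum of both entries moved by fewer reads than either entry. The cause was not tested.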

How the data were processed

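Bulk RNA-seq was read as gene counts, deposited by the authors without normalisation for 24 libraries and 36468 entries. Per the submitters' processing notes, reads were trimmed with Trimmomatic 0.30 and the build was GRCh38.p14. The aligner, counter and strandedness are not given in the sources used here, so overlapping and antisense genes cannot be separated. Entries included 13161 unnamed loci (NewGene) and 4886 that share a symbol, and these were kept apart. Entries with at least 10 counts in total were tested, 29377 in all.

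The 4 libraries of each batch were summed, and batch 1 was compared with 5 batches in edgeR 4.0.16 (quasi-likelihood, TMM, Benjamini-Hochberg adjustment, R 4.3.3). The lone batch is assumed to vary like the others, and p-values measure the spread between batches. Standard errors were taken as the size of the log2 fold change divided by the root of the F statistic. An exact permutation of 6 batches cannot go below p = 0.167. Responses were fitted over 24 libraries with batch as a block and a treatment by batch 1 term. The pairing by batch comes from the labels, since each batch is 1 differentiation. Alternatives used limma 3.58.1 and DESeq2 1.42.0. Scripts were tested on simulated data with no spread between batches beyond that between libraries. That test therefore cannot show how the comparison of 1 batch with 5 copes with such spread. Of 60 pairs of libraries of 1 treatment, none agreed within sampling noise (smallest chi-square per degree of freedom 18.2).

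The members and gene lists were chosen with earlier results of these data known. The lists of motile cilium families, choroid plexus, retinal pigment epithelium and mitochondrial genes under RefSeq symbols were added after values had been seen. Genes were named as the 15 furthest above and 15 furthest below, up to 4 per list, defining markers, and up to 5 response differences in each direction. The rule asked for called genes with a mean of at least 50 counts, or 10 for responses. As no gene was called between batches, lying outside the range replaced the call after this was seen. Other genes named were chosen after their values were seen. All 131 genes named by rule matched 1 RefSeq gene. Intervals for counts of 0 cover counting error only.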

Additional observations from a re-analysis of the deposited data

Results flagged for a closer look

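Each treatment gave genes whose log2 ratio to vehicle differed between batch 1 and batches 2 to 6 by edgeR's interaction test. IL-4+IL-13 had 203 such genes, IL-6 had 28 and TGF-β had 11. The 3 sets share the vehicle libraries, and 4 entries were called higher in all 3. An outlier was also sought in the mean level of chosen gene lists, over the 6 batches of each treatment. No batch stood apart in these 24 groups by Dixon's ratio, with a critical value of 0.625. Whole libraries were not screened in this way.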

How the results depend on the processing

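Between batches edgeR called 0 genes. Other settings called 2754 (DESeq2), 3 (no filter on low counts), 2 (first entry of each symbol), 4578 (24 libraries as samples), 2487 (voom, batch as a random block), 1937 (vehicle libraries only) and 21 (TGF-β libraries only). Leaving out each other batch gave 0 to 1495, and the genes outside the range, 1946, became 1893 to 2783, the last without batch 6. With no replicate block the response calls were 24 in place of 203 (IL-4+IL-13), 8 in place of 28 (IL-6) and again 11 (TGF-β), and DESeq2 gave 369, 102 and 17 in that order. Leaving out each other batch gave 84 to 476, 13 to 78 and 9 to 15. Without the block 15 of the 16 named response differences lost their call. No named gene reversed its direction, among 115 under the 18 alternatives of the main comparison and 16 under those of the responses. The 115 were chosen for lying outside the range, so a reversal could hardly occur. Its absence therefore does not show that their direction is robust. The central nervous system progenitor list turned from 1 above to 1 below the range without batch 2. Scaling by total count moved the median of all genes by -0.107. The cause of these differences was not tested. With 1 batch on one side, what is particular to the batch and what is chance between differentiations cannot be told apart.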
